A study of Ovis aries with 8 samples.

Results

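RNA of respiratory complexes II to V was followed in pancreatic islets of near-term sheep fetuses. Members were the rows of the expression table named SDHA to SDHD, or whose name starts with UQCR, with COX and a digit, or with ATP5, together with CYC1 and CYCS. Rows that merge several names were left out, and of duplicates the row with the highest mean was kept. This gave 42 genes of 25000 rows, on 19 chromosomes. They comprised 3 subunits of complex II, 7 of complex III, cytochrome c, 10 of complex IV and 11 of complex V. The others were 8 complex IV assembly factors and 2 further genes named ATP5, ATP5S and ATP5SL. A mean of at least 1 FPKM (sequenced fragments for each kilobase of a transcript, relative to all fragments mapped in a library) was needed for testing, and 38 members reached it. COX4I2, COX6A2, COX8C and COX14 did not.

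Each library came from hand-picked islets of 1 fetus of a Columbia-Rambouillet ewe with a singleton pregnancy. The 4 fetuses of the NE-Infused group received norepinephrine by vein for 7 days, at 1 µg/min on day 1, 2 µg/min on days 2 to 4 and 4 µg/min on days 5 to 7, and were 137 to 139 days of gestation. The 4 fetuses of the Saline-Control group received only the diluent (0.9% saline holding ascorbic acid at 0.3%) and were 139 to 140 days. Islets are a mixture of endocrine and other cells, and in such bulk samples fewer cells of a type and less RNA per cell cannot be told apart. The animal numbers begin with 09 in control 2 and in norepinephrine animals 1, 3 and 4, and with 10 in controls 1, 3 and 4 and in norepinephrine 2. The labels do not say what these digits stand for. Number and treatment therefore overlap in part, and both comparisons are given. Fetal weight separated the number groups completely, at 2.8 to 3.6 kg in 09 and 3.7 to 5 kg in 10, and gestational age was 137 to 139 days in 09 and 139 to 140 in 10. Weights by treatment were 2.8 to 3.7 kg with norepinephrine and 3.6 to 5 kg in controls. Control 2 and norepinephrine 3, both numbered 09, were female and the other 6 fetuses male. Differences by number and by weight cannot be told apart here.

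The respiratory chain passes electrons from NADH and succinate to oxygen along carriers in the inner mitochondrial membrane, and complexes I, III and IV move protons across it. Complex II oxidises succinate, complex III hands electrons to the small carrier cytochrome c, complex IV reduces oxygen, and complex V, the ATP synthase, uses the resulting proton gradient to make ATP. In beta cells this ATP closes potassium channels and so couples glucose to insulin secretion. Complexes III, IV and V are built from nuclear and mitochondrial genes, and all subunits of complex II are nuclear. No sequence was available for these members, and none is shown.

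No member differed between norepinephrine and control by limma at an adjusted p under 0.05 (0 of 38), and the background was 0.0% of 13252 rows. At an unadjusted p under 0.05 there were 2 members, CYCS and COX11, against 7.36% of all rows. Means were higher with norepinephrine for 33 of the 38 members, with a median log2 difference of 0.21, and lower for 5. Over all rows 52.6% were higher and 47.4% lower, with a median of 0.017. From 100 to 1000 FPKM, 891 of 1249 rows were higher (median 0.12), against 21 of the 22 members there (median 0.22). At 1000 FPKM or more, 110 of 125 rows were higher (median 0.26), against 2 of 2 members (median 0.15). The members' excess of higher means was lost once the animal number entered the model. Then 11 members were higher and 27 lower, with a median of -0.070. In that fit 52.8% of all rows were lower, and 60.9% of those from 100 to 1000 FPKM. None of the 38 passed in that fit (limma, lowest adjusted p = 0.401), against 0.00755% of all rows. At an unadjusted p under 0.05, ATP5J was lower, against 7.14% of all rows, and COX11 was higher. Scaling every animal to the same summed FPKM left 25 members higher and 13 lower (median 0.060). The median of all rows moved with it, from 0.017 to -0.12. Without control 2 the median difference was 0.42, and 0 members passed while 17 had an unadjusted p under 0.05, against 16.5% of all rows in that fit.

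Between the number groups the members differed widely. With treatment in the model, 20 of 38 members were lower in animals numbered 10 at an adjusted p under 0.05, against 10.4% of all rows, and 0 were higher, against 6.06%. With equal summed FPKM the calls were 4 lower, against 1.79% of all rows, and 3 higher, against 31.0%. The median of all rows in that fit was 0.31. The 20 called on the values as deposited were all subunits of complexes II to V: 2 of 3 in complex II, 5 of 7 in III, 4 of 7 tested in IV and 9 of 11 in V. The median over the 28 tested subunits and cytochrome c (29 genes) was -0.67 on the log2 scale, with all 29 lower in 10 (25 of 29 after scaling to equal summed FPKM). Over all rows it was -0.088, with 57.4% lower and 42.6% higher. Without control 2, the only control numbered 09, 0 of 38 members passed (0.0528% of all rows were called lower) and 19 had an unadjusted p under 0.05, against 17.7% of all rows. In that fit 35 members were lower, against 35 with all animals, though not the same 35: COX18 turned from -0.31 to 0.050 and COX10 from 0.025 to -0.27. With treatment in the model, it compared norepinephrine 2 alone with norepinephrine animals 1, 3 and 4, and so rests on 1 animal. The 29 subunit and cytochrome c genes were all lower in it, and their median was -0.51. The number of rows called in the whole table then fell from 2187 to 18. Without norepinephrine 2, the only norepinephrine animal numbered 10, 11 members were called lower, against 4.01% of all rows.

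**Figure D1:**
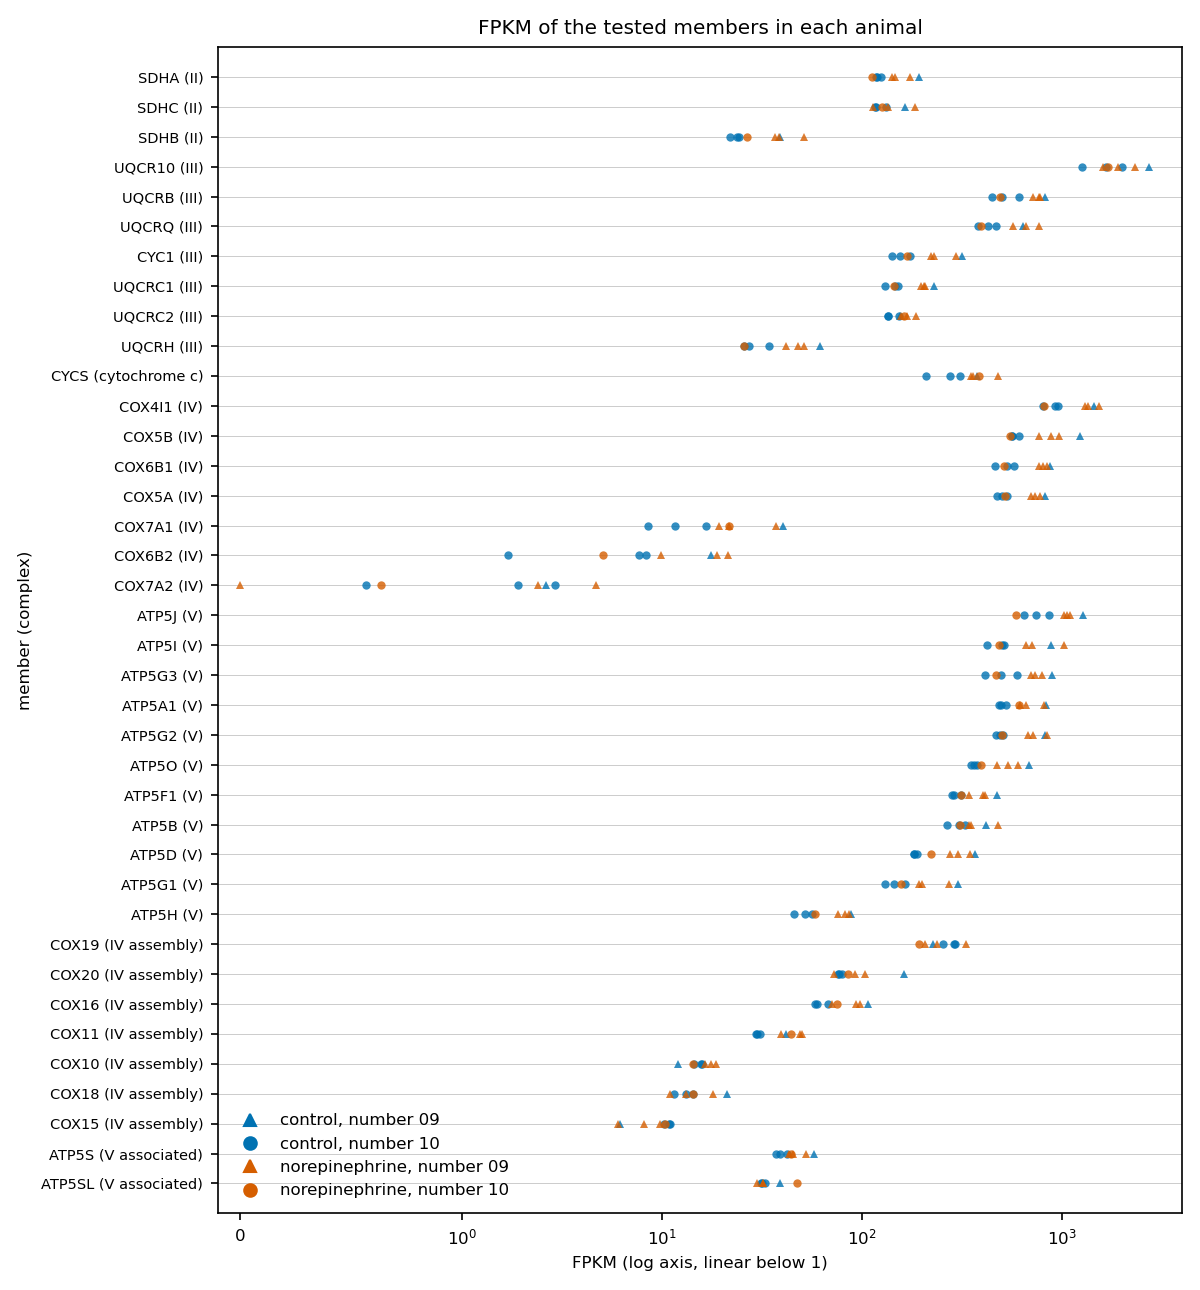
FPKM of the 38 tested members in each animal, on a log axis that is linear below 1. Colour gives the treatment and shape the first 2 digits of the animal number. In most subunits the 4 triangles (number 09) lie to the right of the 4 circles (number 10), for example from 1305 to 1539 against 802 to 955 in COX4I1, while blue and orange are mixed.

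Complex II was represented by 3 of its 4 subunits, since SDHD was not analysed here. SDHA, the flavoprotein that holds the FAD and oxidises succinate (chromosome 16, 70480254 to 70512526 on Oar_v3.1), stood at 119, 193, 125 and 117 FPKM in controls 1 to 4 and at 146, 112, 141 and 175 in norepinephrine animals 1 to 4. The treatment groups overlapped, and the 4 animals numbered 09 were all above the 4 numbered 10. Its means were 144 ± 25.7 FPKM with norepinephrine and 139 ± 36.7 in controls (± is the SD over n = 4 animals here and below), which is 0.067 on the log2 scale (SE 0.20, adjusted p = 0.944 by limma). Between number groups they were 118 ± 5.29 in 10 and 164 ± 24.6 in 09, a log2 difference of -0.56 (SE 0.11, adjusted p = 0.0194).

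SDHB, the iron-sulphur subunit, had the lowest level of the 3 and the greatest treatment difference. It stood at 22.0, 38.9, 24.2 and 23.8 FPKM in the controls and at 36.7, 26.8, 38.6 and 51.6 with norepinephrine. The 4 highest values were those of the animals numbered 09, and the 3 lowest were the controls numbered 10. The treatment difference was 0.48 (SE 0.23, adjusted p = 0.681) on the log2 scale and 0.15 with the number in the model. The number groups differed by -0.67 (SE 0.14, adjusted p = 0.0228). SDHC, a membrane anchor, was at 117, 165, 116 and 132 FPKM in the controls and 135, 126, 114 and 185 with norepinephrine, and passed in neither comparison. Norepinephrine 3, numbered 09, had the lowest SDHC value of all. Per length, SDHA was 3.40 to 5.40 times as abundant as SDHB in the 8 animals (median 4.56) and 0.888 to 1.24 times as abundant as SDHC.

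All 7 complex III rows had higher means with norepinephrine (median 0.22), and with the number in the model 6 of 7 were lower (median -0.10). UQCR10, a small subunit, was the most abundant member of the 42. It stood at 1265, 2735, 2014 and 1657 FPKM in the controls and at 1903, 1710, 2324 and 1619 with norepinephrine. Control 1 was lowest and control 2 highest, so the control range enclosed the norepinephrine range, and neither comparison passed (10 minus 09: -0.47, SE 0.22, adjusted p = 0.174). UQCRB, a subunit near the ubiquinone site, stood at 446, 828, 501 and 609 in the controls and 717, 490, 783 and 773 with norepinephrine. UQCRQ, another small subunit, stood at 381, 637, 468 and 426 and at 663, 395, 571 and 774. Both were higher in every animal numbered 09 than in any numbered 10, by -0.66 (SE 0.12, adjusted p = 0.0167) and -0.67 (SE 0.13, adjusted p = 0.0204) as 10 minus 09, while the treatment groups overlapped.

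CYC1 encodes cytochrome c1, the haem subunit that passes electrons on to cytochrome c (chromosome 9, 13690819 to 13692852). It stood at 141, 317, 155 and 174 FPKM in the controls and at 221, 169, 230 and 295 with norepinephrine. Control 2 was highest, above the 3 other animals numbered 09, and the 4 animals numbered 10 lay between 141 and 174. The treatment difference was 0.26 (SE 0.27, adjusted p = 0.821) and the number difference -0.78 (SE 0.16, adjusted p = 0.0210). UQCRH, the hinge subunit, is listed on chromosome 22 at a locus of 276 bp, and on chromosome 1 with 0 FPKM in all animals. The row on chromosome 22 stood at 25.8, 61.6, 27.3 and 34.2 in the controls and 41.9, 25.6, 47.9 and 51.2 with norepinephrine, 10 minus 09 being -0.96 (SE 0.14, adjusted p = 0.0108). Reads could be shared between near-identical copies, so this level is uncertain.

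The core subunits UQCRC1 and UQCRC2 parted. UQCRC1 stood at 131, 230, 147 and 152 FPKM in the controls and 205, 144, 198 and 206 with norepinephrine, and was lower in 10 (-0.58, SE 0.096, adjusted p = 0.0135). UQCRC2, named here after its values were seen, was at 135, 154, 136 and 153 FPKM in the controls and 169, 163, 157 and 186 with norepinephrine. It was the only member whose norepinephrine values all exceeded all control values (1 of 38, against 1.88% of all rows, with 0 members wholly below against 2.35%), by 0.22 (SE 0.11, adjusted p = 0.690). Its number difference was -0.096 (SE 0.10, adjusted p = 0.530), and its treatment difference was 0.14 within 09 and 0.21 within 10. Whether the number differences of UQCRC1 and UQCRC2 differ from each other was not tested.

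CYCS encodes cytochrome c, the mobile carrier between complexes III and IV, listed at a locus of 428 bp (chromosome 4, 70703241 to 70703668). It stood at 310, 379, 208 and 278 FPKM in the controls and 362, 384, 480 and 353 with norepinephrine. Only control 2 lay within the norepinephrine range, and the means were 395 ± 58.5 and 294 ± 70.8. The difference was 0.45 (SE 0.20, unadjusted p = 0.0478, adjusted p = 0.666), and 0.058 within animals numbered 09 against 0.55 within those numbered 10. The number difference was -0.28 (SE 0.20, adjusted p = 0.337). As for UQCRH, so short a locus could share reads with a near-identical copy, and the level of CYCS is uncertain.

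In complex IV, 4 of the 7 tested subunits were lower in 10 and 6 of 7 had higher means with norepinephrine, a direction that turned to 6 of 7 lower with the number in the model. COX4I1, the regulatory subunit of most tissues (chromosome 14, 11250064 to 11255630), stood at 802, 1459, 923 and 955 FPKM in the controls and at 1305, 812, 1353 and 1539 with norepinephrine. The animals numbered 09 were at 1414 ± 105 and those numbered 10 at 873 ± 77.6, with a log2 difference of -0.75 (SE 0.11, adjusted p = 0.0108). Treatment means were 1252 ± 310 and 1035 ± 290 (0.27, SE 0.26, adjusted p = 0.806). COX5B, a zinc-binding subunit, stood at 562, 1239, 563 and 614 in the controls and 888, 553, 767 and 966 with norepinephrine. Its values in number 10 spanned only 553 to 614, and control 2 was far above the other controls. COX6B1, on the intermembrane side, stood at 579, 872, 464 and 535 and at 810, 517, 768 and 846. COX5B, COX6B1 and COX5A were lower in 10, by -0.87 (SE 0.13, adjusted p = 0.0114), -0.69 (SE 0.11, adjusted p = 0.0116) and -0.61 (SE 0.096, adjusted p = 0.0119).

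Isoforms known from other tissues differed in level. COX4I2, COX6A2 and COX8C had means under 1 FPKM, while COX6B2 and COX7A1 had means of 11.3 and 22.1. COX4I2, the hypoxia-linked partner of COX4I1, was listed at 0.661, 0.190, 0.0707 and 0.152 FPKM in the controls and 0.127, 0.164, 0 and 0.802 with norepinephrine. COX4I1 was 1213 to 13056 times as abundant per length in the 7 animals with a COX4I2 value above 0. COX6B2, known from testis, stood at 1.69, 17.6, 8.35 and 7.71 in the controls and 9.83, 5.05, 21.4 and 18.8 with norepinephrine. It was above 9.8 FPKM in every animal numbered 09 and below 8.4 in every animal numbered 10, with the greatest number difference of all members (-1.55, SE 0.49), which missed the threshold (adjusted p = 0.0650). COX6B1 was 35.9 to 343 times as abundant.

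COX7A1, the isoform of heart and muscle, was at 11.6, 40.5, 16.6 and 8.50 FPKM in the controls and 37.3, 21.6, 21.7 and 19.2 with norepinephrine. Number groups overlapped through norepinephrine animals 2 and 4, and neither comparison passed (10 minus 09: -0.95, SE 0.39, adjusted p = 0.130). The row named COX7A2, the isoform of most tissues, spans only 249 bp and held 1.91, 2.63, 0.567 and 2.92 FPKM in the controls and 4.69, 0.634, 0 and 2.39 with norepinephrine. Such a low level beside the other general subunits leaves it uncertain whether this row measures the main gene copy. COX6A2, a muscle isoform, stayed at or below 0.407 in the controls (0.407, 0, 0.357 and 0) and was at 3.04, 0.404, 0 and 1.42 with norepinephrine. COX8C was above 0 only in norepinephrine 4, at 2.23. COX6A1, COX6C, COX7B, COX7C and COX8A were not analysed here.

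**Figure D2:**
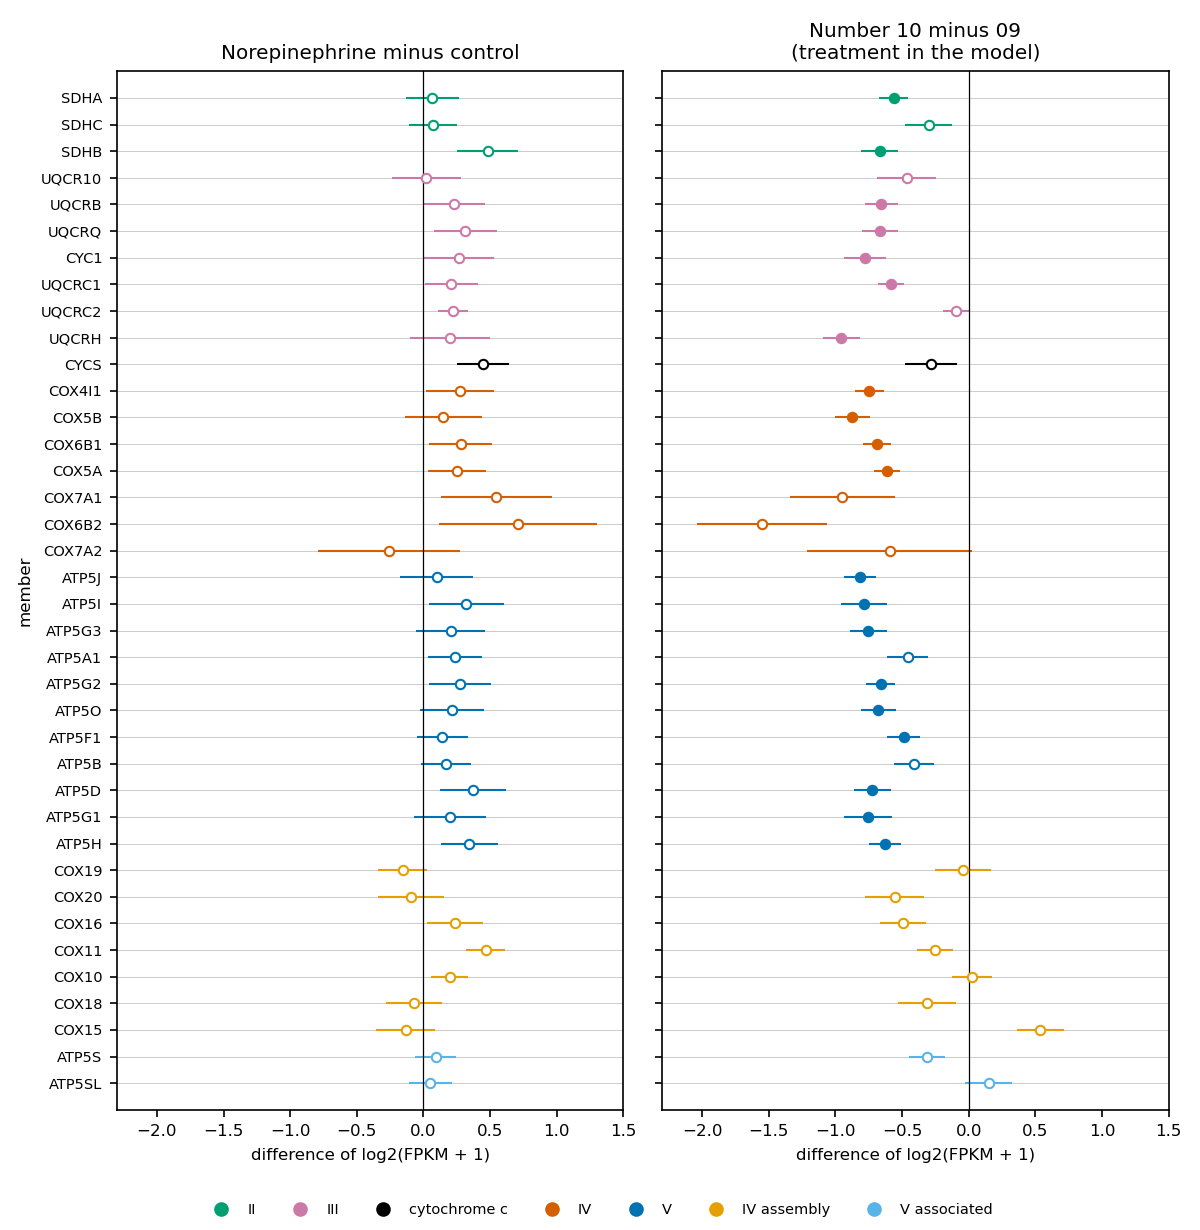
Differences of log2(FPKM + 1) for each tested member, norepinephrine minus control on the left and number 10 minus 09 on the right, with bars of 1 SE. Filled circles have a limma adjusted p under 0.05. All circles on the left are open, and the 20 filled ones on the right all belong to subunits and lie below 0.

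Among complexes II to V, complex V showed the densest set of differences between number groups. In all 11 rows every animal numbered 09 was above every animal numbered 10, and 9 of 11 passed, with a median of -0.68. Across the 38 members that complete separation held for 23, against 14.8% of all rows. From 100 to 1000 FPKM it held for 18 of 22 members and 544 of 1249 rows. At 1000 FPKM or more it held for 1 of 2 members and 88 of 125 rows. It also held for 6 of 6 carriers and channels of phosphate, ATP and ADP, and for 19 of 25 complex I rows. ATP5A1 and ATP5B, the alpha and beta subunits of the catalytic head, were the 2 complex V rows that did not pass (-0.46, SE 0.15, adjusted p = 0.0755, and -0.41, SE 0.15, adjusted p = 0.0983). ATP5A1 was 1.60 to 1.99 times as abundant per length as ATP5B. ATP5O, the oligomycin-sensitivity subunit at the top of the outer stalk, stood at 365, 685, 351 and 379 FPKM in the controls and 476, 393, 540 and 602 with norepinephrine, and ATP5F1, subunit b of that stalk, at 284, 472, 288 and 314 and at 342, 313, 404 and 413. In both, the animals numbered 10 formed the lower set (-0.68, SE 0.13, adjusted p = 0.0185, and -0.49, SE 0.12, adjusted p = 0.0351).

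ATP5J, coupling factor 6 of the stalk (chromosome 1, 128879497 to 128883134), was the most abundant complex V row, at 647, 1282, 746 and 869 FPKM in the controls and 1063, 588, 1105 and 1027 with norepinephrine. Norepinephrine 2 was lowest and control 2 highest, so each extreme fell to the animal whose number differed from the rest of its group. The treatment difference was 0.10 (SE 0.27, adjusted p = 0.939) and turned to -0.31 with the number in the model (unadjusted p = 0.0325, adjusted p = 0.401). The number difference was -0.82 (SE 0.12, adjusted p = 0.0108). ATP5I, subunit e, listed at a locus of 213 bp, stood at 424, 880, 517 and 502 in the controls and 665, 484, 714 and 1024 with norepinephrine (10 minus 09: -0.79, SE 0.17, adjusted p = 0.0243). As for UQCRH, so short a locus could share reads with a near-identical copy, and its level is uncertain.

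ATP5D and ATP5H had the greatest treatment differences in complex V, and neither passed. ATP5D, the delta subunit of the central stalk, stood at 189, 366, 183 and 183 FPKM in the controls and 277, 223, 303 and 347 with norepinephrine. Controls 1, 3 and 4 were the 3 lowest and control 2 the highest of all 8, and the difference was 0.37 (SE 0.25, adjusted p = 0.765). ATP5H, subunit d of the outer stalk, stood at 46.0, 88.3, 51.9 and 56.1 and at 75.8, 58.1, 82.1 and 86.4, in the same order of groups (0.34, SE 0.21, adjusted p = 0.741). With the number in the model the differences were 0.0088 and 0.031. Both were lower in 10, by -0.72 (SE 0.14, adjusted p = 0.0172) and -0.63 (SE 0.12, adjusted p = 0.0171).

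The rotating c ring of complex V is encoded by 3 genes whose mature proteins are the same and whose import sequences differ. ATP5G3 stood at 416, 893, 496 and 595 FPKM in the controls and 700, 470, 738 and 793 with norepinephrine. ATP5G2 was close to it, at 468, 826, 509 and 492 and at 677, 503, 723 and 845. ATP5G1 was lower, at 131, 301, 146 and 164 and at 194, 157, 199 and 272. All 3 were lower in 10 (ATP5G3 -0.75, SE 0.14, adjusted p = 0.0164; ATP5G2 -0.66, SE 0.11, adjusted p = 0.0137; ATP5G1 -0.76, SE 0.18, adjusted p = 0.0305). Their shares of the summed c-subunit FPKM moved little: ATP5G1 held 12.0% to 14.9%, ATP5G2 39.3% to 46.1% and ATP5G3 41.0% to 47.6% over the 8 animals.

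**Figure D3:**
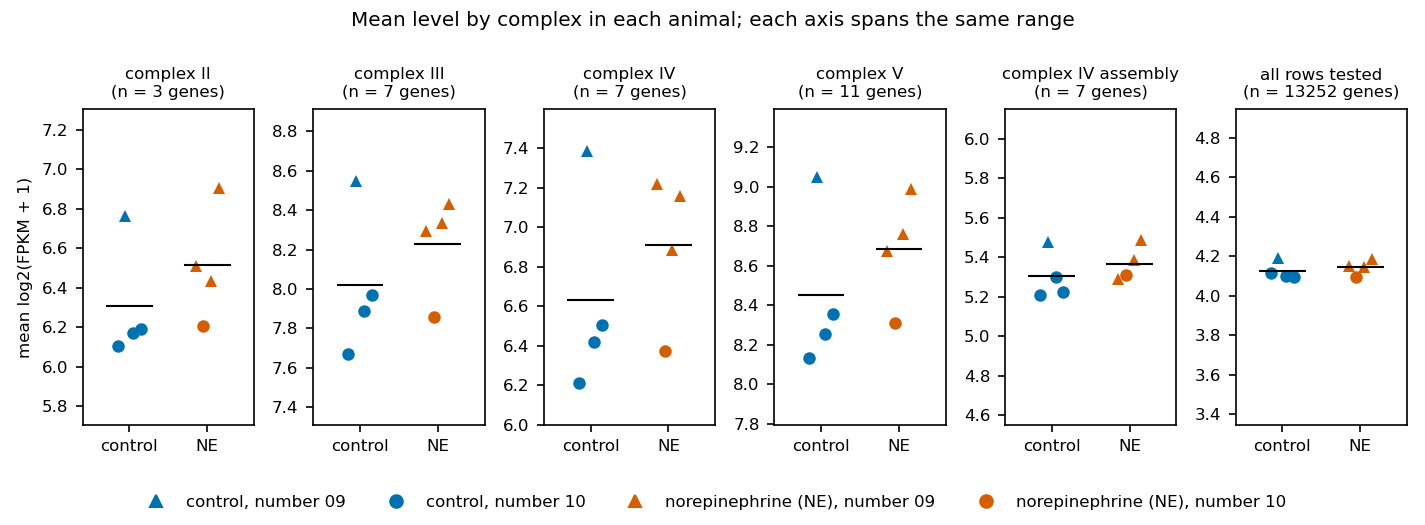
Mean log2(FPKM + 1) over the tested genes of each complex in each animal, with group means as lines. Every axis spans the same number of log2 units. In complexes II to V the number 09 triangles stand above the number 10 circles in both treatment groups. The mean over all 13252 rows spans only 4.10 to 4.19, and there too the triangles (4.15 to 4.19) stand above the circles (4.10 to 4.12).

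Summarised by complex, the mean log2(FPKM + 1) placed all animals numbered 09 above all numbered 10 in II, III, IV and V. The mean over all rows tested gave the same separation (4.15 to 4.19 in 09, 4.10 to 4.12 in 10). So did that over rows of at least 100 FPKM (7.98 to 8.11 and 7.66 to 7.75). For complex V the mean was 8.13, 9.05, 8.26 and 8.36 in controls 1 to 4 and 8.68, 8.31, 8.76 and 8.99 in norepinephrine animals 1 to 4. Control 2 was the highest animal in 18 of the 29 subunits and cytochrome c and norepinephrine 4 in 8, and control 1 was the lowest in 18. The members' share of all FPKM was 1.47% to 1.61% in the 4 animals numbered 09 and 1.27% to 1.43% in the 4 numbered 10.

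Within number groups the treatment difference lost its common sign. Within 09, where 3 norepinephrine animals meet control 2 alone, the median was -0.22 in complex II, -0.18 in III, -0.16 in IV and -0.27 in V. There 25 of 28 subunits were lower with norepinephrine, against 7152 of 13252 rows and 839 of the 1249 rows from 100 to 1000 FPKM. Within 10, where norepinephrine 2 alone meets 3 controls, the medians were 0.057, 0.015, -0.020 and 0.086. There 18 of 28 were higher, against 6672 of the 13252 rows and 614 of the 1249. A single animal on one side gives neither value a test, and an interaction of treatment and number passed for 0 of the 38 members (limma, lowest adjusted p = 0.753), against 0.121% of all rows. At an unadjusted p under 0.05 there were 4 members, against 5.61% of all rows, and with 1 animal in each of 2 cells this does not show that the effects were alike. Gestational age, lower with norepinephrine and in 09, also moved the medians when it was added to the model, to -0.42, -0.19, -0.22 and -0.29 for complexes II to V.

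**Figure D4:**
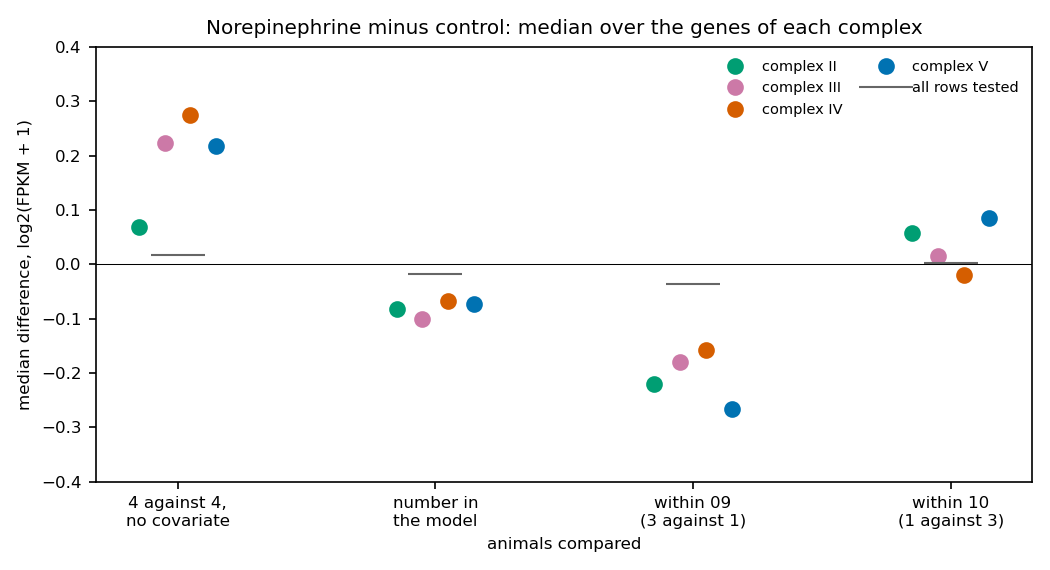
Median treatment difference, norepinephrine minus control on the log2(FPKM + 1) scale, over the tested genes of complexes II to V and over all rows. The medians of 0.069 to 0.27 in the comparison of 4 against 4 animals are all negative with the number in the model and within number 09, and lie between -0.020 and 0.086 within number 10.

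Within each treatment the differences between number groups had the same sign. Among controls, where control 2 is the only 09 animal, all 28 subunits were lower in 10 (median -0.74). So were 7491 of 13252 rows and 1047 of the 1249 rows from 100 to 1000 FPKM. Among norepinephrine animals, where norepinephrine 2 is the only one numbered 10, all 28 were lower as well (median -0.53). There 7258 of the 13252 rows and 1013 of the 1249 were lower. The controls share control 2 with the pooled value, so these are descriptions of the same 8 animals. They are also the same contrasts as the fits without norepinephrine 2 and without control 2. Each rests on 1 animal on one side, and they are no separate check.

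Abundant transcripts as a class were lower in animals numbered 10. The median 10 minus 09 difference was 0.025 over rows with a mean of 1 to 10 FPKM, -0.099 from 10 to 100, -0.38 from 100 to 1000 and -0.75 at 1000 or more. In the range from 100 to 1000 FPKM, 37.4% of 1249 rows were called, and 16 of the 22 members there were called, with a median of -0.66. In that range loci under 10 kb had a median of -0.47 (641 rows, 45.4% called) and loci of 10 kb or more -0.27 (608 rows, 28.9% called). Loci of the subunits and cytochrome c are short, with a median span of 3053 bp against 20220 bp over all rows tested. From 10 to 100 FPKM, 3 of the 12 members (SDHB, UQCRH and ATP5H) were called (25%), against 17.6% of 6850 rows. The part of abundance and locus length in the members' differences was not tested.

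**Figure D5:**
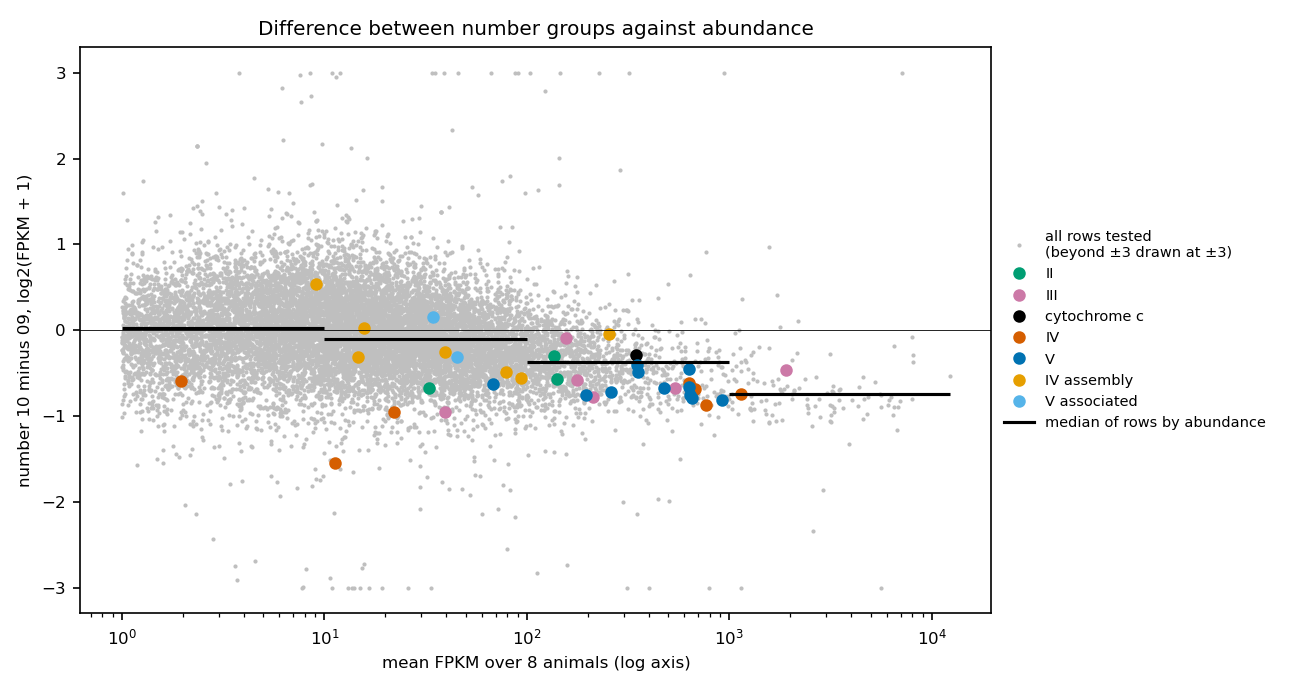
Number 10 minus 09 difference of log2(FPKM + 1) against mean FPKM for all rows tested (grey) and the members (coloured by complex). Black lines are the medians of the 4 abundance ranges, falling from 0.025 to -0.75, and most subunits between 100 and 1000 FPKM lie below the line of -0.38, which all rows of that range share.

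The number of members called moved with the scaling. Summed FPKM ran from 981583 to 1112624 in 09 and from 768021 to 796149 in 10. With equal sums, the median of all rows moved to 0.31 and 94.5% of the calls in the whole table were higher in 10. Members called lower then numbered 4 (ATP5J, COX4I1, UQCRH and COX5B), against 1.79% of all rows, and 3 were called higher (UQCRC2, COX15 and ATP5SL), against 31.0%. A single factor for each animal shifts all rows nearly alike, so the members' difference from the median of all rows is almost fixed under any such scaling and tests nothing.

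Assembly factors of complex IV lay nearer to 0 between number groups than the subunits they build, and the difference between these lists was not tested. Of 7 tested, 0 passed by limma between number groups (3 at an unadjusted p under 0.05), 5 were lower in 10 and 2 higher, and the median was -0.25 (0.19 with equal sums, where 5 were higher). It was -0.45 within controls and -0.056 within norepinephrine animals. The factors had means of 9.08 to 254 FPKM, against 634 to 1144 in the 4 called complex IV subunits. Over all rows the median was -0.099 from 10 to 100 FPKM and -0.38 from 100 to 1000. COX15, which makes haem A, was named after its values were seen. It stood at 10.8, 6.15, 11 and 10.3 FPKM in the controls and 9.80, 10.4, 6.06 and 8.11 with norepinephrine. It was the only member with all number 10 values above all number 09 values (1 of 38, against 10.6% of all rows), by 0.54 (SE 0.18, adjusted p = 0.0747). COX10, which makes the haem O precursor, differed by 0.025 and COX19, a copper-handling factor, by -0.042. COX20, a chaperone of the COX2 subunit, and COX16 were at -0.56 (adjusted p = 0.120) and -0.49 (adjusted p = 0.0879).

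COX11, which delivers copper to the COX1 subunit and was also named after its values were seen, had the lowest treatment p of the members. It stood at 30.0, 41.5, 29.4 and 31.0 FPKM in the controls and 50.1, 44.2, 39.4 and 49.1 with norepinephrine. Control 2 alone lay within the norepinephrine range, and the means were 45.7 ± 4.95 and 33.0 ± 5.74. The difference was 0.47 (SE 0.15, unadjusted p = 0.0104, adjusted p = 0.550), 0.14 within 09 and 0.54 within 10. COX18, which inserts COX2 into the membrane, differed by -0.072 between treatments, and COX14 is listed at 0 in all animals. ATP5S, also called coupling factor B, was at 46.4 ± 4.30 and 44.0 ± 9.42 FPKM (norepinephrine before control). ATP5SL, whose product is known from complex I assembly, was at 35.3 ± 8.05 and 33.5 ± 3.58.

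Other genes of the pathway were read from lists chosen with earlier results of these data known. Of 6 carriers and channels that move phosphate, ATP and ADP, 5 were lower in 10 at an adjusted p under 0.05 and 0 higher, with a median of -0.62. Beside this and the next counts stand the same shares of all rows, 10.4% lower and 6.06% higher. By abundance, the share called was 8.55% from 1 to 10 FPKM, 17.6% from 10 to 100, 37.4% from 100 to 1000 and 69.6% at 1000 or more. All regulators and most further assembly factors counted below had means under 100 FPKM. SLC25A6, an ADP/ATP carrier, was among the 5 lower carriers (-0.74, adjusted p = 0.0133). VDAC1, a pore of the outer membrane, did not pass (-0.24, adjusted p = 0.161). Of 23 further assembly factors and small subunits, 8 were lower and 0 higher (median -0.43). Of 12 regulators of mitochondrial genes, ESRRA (-0.85, adjusted p = 0.0111) and C10orf2, the mitochondrial helicase (-0.58, adjusted p = 0.0324), were lower and CREB1 was higher (1.19, adjusted p = 0.0207), with a median of -0.071. TFAM, which packages mitochondrial DNA, differed by 0.27 (adjusted p = 0.272). None of these 41 genes passed between treatments by limma, and 1 had an unadjusted p under 0.05. Complex I rows (NDUF names other than assembly factors) were called lower in 10 in 17 of 25 cases, with a median of -0.58. With equal sums the medians were -0.17 for the carriers, -0.016 for the further assembly factors, 0.35 for the regulators and -0.14 for complex I, and lower calls numbered 0, 0, 1 and 1.

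Mitochondrial DNA encodes the core of complexes III and IV and parts of V, and these transcripts sit in merged rows. The row that holds COX1, MT-CO2, COIII, MT-ATP6 and MT-ATP8 with other mitochondrial genes stood at 5276, 6998, 3176 and 4459 FPKM in the controls and 4760, 2967, 5687 and 5387 with norepinephrine. Number groups overlapped through control 1, and with treatment in the model the row was lower in 10 (-0.78, SE 0.18, adjusted p = 0.0295), as was the cytochrome b row (-0.78, SE 0.15, adjusted p = 0.0171). Rows of 1000 FPKM or more as a class had a median of -0.75, with 69.6% of 125 called. The treatment differences of the COX1 and cytochrome b rows were -0.068 and -0.24, and neither passed (adjusted p = 0.968 and 0.869).

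Of the marker lists, the acinar one separated the number groups in its summed level. All 12 acinar markers with a row had lower means in 10 and higher means with norepinephrine, and their summed level was 238 to 1188 FPKM in 09 and 150 to 181 in 10. The other sums overlapped between number groups. Endocrine markers, which define the labelled tissue, were present (16 of 20 listed, 0 at 0 in all animals). They summed to 12334 to 18635 FPKM in 09 and 9305 to 14423 in 10. INS, PPY, NEUROD1 and HHEX were not analysed here and are not in that sum. By treatment, the acinar sum was 150 to 238 in controls and 151 to 1188 with norepinephrine, and the endocrine sum 9305 to 15350 and 12334 to 18635. Duct markers summed to 213 to 513 in 09 and 117 to 217 in 10, endothelial to 190 to 365 and 165 to 304, mesenchymal to 1624 to 3684 and 1323 to 2354, leukocyte to 135 to 185 and 110 to 158, and red cell markers stayed below 0.63 in every animal. No list had a marker at 0 in all animals among those with a row. Their part in the members' differences was not tested. Relative depth was read from steps of 1 fragment in low rows, against control 1, which is numbered 10. It was 0.648 and 0.726 in norepinephrine 1 and 3, numbered 09. In the other animals numbered 10 it was 1.17 (control 3), 1.09 (control 4) and 1.01 (norepinephrine 2). It is unknown for control 2 and norepinephrine 4, both numbered 09. Where it could be read, depth thus split by number, and its part in the differences was not tested.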

How the data were processed

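RNA of islets from 8 fetuses was sequenced as paired reads of 100 bp from TruSeq libraries of selected mRNA, per the labels' protocols. The authors deposited 1 table of FPKM values per gene row and animal, with no counts. The submitters' processing notes name TopHat2 2.0.1, Cufflinks 2.1.1, Cuffdiff and the build Oar_v3.1. No source used here states the annotation, filters or strand setting. Reads shared by overlapping antisense genes or near-identical copies therefore cannot be told apart. No other sample column was present (0 left out). Coordinates are those of the table, with starts raised by 1.

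Tests ran on log2(FPKM + 1), where the pseudocount shrinks the differences of genes with low values. The 13252 rows with a mean of at least 1 FPKM were fitted with limma 3.58.1 in R 4.3.3 (eBayes with an intensity trend, two-sided, Benjamini-Hochberg over all rows, threshold 0.05). Treatment was fitted alone, and the number groups in a model that also held treatment. Replicate numbers belong to different fetuses and pair no animals. Where 1 animal stands alone, it is assumed to vary like the others. The members, lists and rule for named genes (in each complex the 3 most abundant and the 2 with the greatest treatment difference, the 5 greatest number differences, complex II, CYC1, CYCS and isoform sets) were chosen with earlier results of these data known. No count was available, so no counting interval was computed.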

Additional observations from a re-analysis of the deposited data

Results flagged for a closer look

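Single animals stood far from the other 3 of their treatment group in 15 of 76 checks (38 tested members in 2 groups of 4 animals; the gap to the nearest animal exceeded Dixon's critical value, which chance gives in about 1 of 20 groups). Control 2, the only control numbered 09 and the only female control, was far above the other controls in SDHA (193 FPKM), SDHB (38.9), COX5B (1239), ATP5A1 (835), ATP5G2 (826), ATP5O (685), ATP5F1 (472), ATP5D (366), COX20 (162) and COX11 (41.5), and far below them in COX15 (6.15). Norepinephrine 2, the only norepinephrine animal numbered 10, was far below its group in UQCRC1 (144) and ATP5J (588) and far above it in ATP5SL (47.3). Norepinephrine 1 was far above its group in COX7A1 (37.3). The interaction of treatment and number passed for 0 of 38 members by limma (4 at an unadjusted p under 0.05), in a fit where control 2 and norepinephrine 2 each stand alone.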

How the results depend on the processing

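No member passed between treatments under any alternative run. The sign of the treatment difference was not stable, and the cause was not tested. With the number in the model the median turned to -0.10 in complex III, and within 09 to -0.18 in III and -0.27 in V. With gestational age it turned to -0.42, -0.19, -0.22 and -0.29 in II to V. Named members that turned with the number were SDHA -0.21, SDHC -0.082, UQCR10 -0.21, UQCRB -0.10, UQCRQ -0.020, CYC1 -0.12, UQCRH -0.28, COX4I1 -0.098, COX5B -0.29, COX6B1 -0.065, COX6B2 -0.067, ATP5J -0.31, ATP5I -0.073, ATP5G3 -0.17, ATP5G2 -0.054 and ATP5G1 -0.18. With gestational age they were SDHA -0.43, SDHC -0.42, SDHB -0.13, UQCR10 -0.055, UQCRB -0.19, UQCRQ -0.30, CYC1 -0.39, UQCRH -0.45, COX4I1 -0.28, COX5B -0.56, COX6B1 -0.22, COX6B2 -0.21, ATP5J -0.38, ATP5I -0.41, ATP5G3 -0.33, ATP5G2 -0.25, ATP5D -0.18, ATP5G1 -0.48 and ATP5H -0.090. With equal sums they were SDHA -0.086, SDHC -0.084, UQCR10 -0.13, COX5B -0.0051 and ATP5J -0.054. Leaving out 1 animal at a time, the difference ran from -0.033 to 0.24 in SDHA, -0.072 to 0.18 in SDHC, -0.16 to 0.21 in UQCR10, -0.68 to 0.16 in COX7A2 and -0.034 to 0.31 in ATP5J.

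Between number groups, leaving out 1 animal at a time gave 0 to 21 members called lower and 0 to 1 called higher (COX15, without norepinephrine 1), and medians of -0.92 to -0.65 in complex IV and -0.78 to -0.48 in V. With equal sums 4 were called lower and 3 higher, against 1.79% and 31.0% of all rows. The medians were then -0.11, -0.21, -0.34 and -0.23 in II to V, and SDHC (0.15) and CYCS (0.17) turned. With equal upper quartiles 19 were called lower and 1 higher (COX15), with medians of -0.50 in III and -0.52 in V. Among norepinephrine animals alone, the same contrast as the fit without control 2, the median in V was -0.48. The pseudocount of 0.1, both other filters, no variance trend and no treatment term left 19 to 23 members called lower. With the replicate block 0 members passed between treatments (1 at an unadjusted p under 0.05). A control and a norepinephrine animal with the same replicate number did not deviate together (correlations of -0.38 to 0.093). These replicate numbers are not the animal numbers that define the number groups.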
